A study of Mus musculus with 96 samples.

Results

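The genes described here are those of the nuclear-encoded subunits of mitochondrial complex I, taken by name: every probe whose platform annotation reads Nduf followed by a, b, c, s or v and a number, or Ndufab1, with the assembly factors left out. The rule finds 45 probes for 35 gene names among 25697 probes for 16593 gene names on the array. For the 7 genes with several probes, the probe of highest mean signal stands for the gene and the other 10 probes are reported as further probes. Subunits without a probe of such a name, the mitochondrially encoded subunits among them, were not analysed here.

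The series holds 96 Illumina bead arrays of RNA from male mice, taken from liver, from muscle, from brown fat (BAT, brown adipose tissue) and from the white fat pad of the epididymis (eWAT). Each tissue has 4 groups of 6 animals. The WT group was C57/Bl6 on a low fat diet without restriction of food. The SIRT1Tg group was SIRT1Tg/Tg mice under the same feeding, transgenic for the deacetylase gene Sirt1. The labels do not say what drives the transgene. The CR group was C57/Bl6 on caloric restriction for 3 months, which the labels give as EODF, and the EX group was C57/Bl6 on the low fat diet with a running wheel for 10 weeks. All animals, controls included, were killed at 8 in the morning after a fast of 12 h, so no group is a fed state. The labels do not give ages.

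Complex I, NADH:ubiquinone oxidoreductase, takes electrons from NADH, passes them along a flavin and a chain of iron-sulfur clusters to ubiquinone, and pumps protons out of the mitochondrial matrix. It is shaped like an L, with a matrix arm that holds the redox cofactors and a membrane arm that holds the proton channels. The core subunits do the chemistry, and the accessory subunits around them are needed for assembly and stability. Brown fat and oxidative muscle are rich in mitochondria, and white fat has few.

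Values are log2 intensities after background correction and quantile normalisation, either within a tissue (for comparisons with WT) or over all 96 arrays (for comparisons between tissues). A probe was kept where it was detected above background on at least 6 of the 24 arrays of a tissue. Of the 35 genes, 34 were kept in each of the 4 tissues. The exception was Ndufs1, the largest iron-sulfur subunit, whose probe was detected on 2 of 96 arrays. Ndufab1, the mitochondrial acyl carrier protein, was detected on 77 arrays and Ndufb11 on 94. A probe's brightness depends on its sequence, so levels of different probes are not compared as amounts of RNA.

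Array quality and tissue identity bear on what follows. Between 5841 and 15381 probes were detected per array. Arrays are named here by tissue, animal and group. The lowest was the array labelled liver_1953_SIRT1Tg, whose Sirt1 level of 4.48 lay below all WT liver arrays (5.77 to 6.30), against its label. Sirt1 was higher in SIRT1Tg than in WT by 1.83 in muscle, 1.37 in BAT and 2.58 in eWAT (limma adjusted p = 4.7e-10, 1.53e-09 and 8.63e-13), and in liver by 0.86 without passing the test (adjusted p = 0.386). Markers of the labelled tissue were high in each tissue, except that the Alb probe read between 4.28 and 5.37 in liver while the array means of the hepatocyte list ran from 10.1 to 10.4. The muscle-defining genes (7 on the array) ranged from 4.25 to 11.4 in their mean over BAT arrays. All CR animals carry numbers of the later series (B), all EX animals those of the earlier series (A), and WT and SIRT1Tg hold 3 of each, so number series was a term in each fit. In bulk tissue, fewer cells of a type and less RNA per cell cannot be told apart.

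In WT mice the complex I genes were highest in BAT, then in muscle, and lowest in liver and eWAT. BAT exceeded liver for 34 of 34 genes, by a median of 1.61 on the log2 scale, or 3.04-fold, where 30.5% of the 16884 probes tested were higher in BAT (limma, Benjamini-Hochberg adjusted p under 0.05). BAT exceeded eWAT for 34 of 34 genes as well, by a median of 1.75, or 3.35-fold, against 22.2% of all probes. Muscle was above liver for 33 genes (33.1% of all probes) and above eWAT for 32 (30.6% of all probes), with medians of 1.19 and 1.20. The gene called lower in muscle than in liver was Ndufab1, by 0.45 ± 0.18 (adjusted p = 0.0276), with overlapping groups. Its probe was detected on 3 of 6 WT arrays in muscle and on 5 of 6 in liver. That call was lost without background correction (adjusted p = 0.0797) and in 5 of 12 omissions of a single array. Of the 34 genes higher in BAT than in liver, Ndufb2 (0.72) lost its call in 6 of 12 such omissions and Ndufb11 (0.44) in 2 of 12. The order BAT, muscle, eWAT, liver was seen for 17 genes, the order BAT, muscle, liver, eWAT for 10, muscle first, then BAT, liver and eWAT for 6, and BAT, liver, muscle, eWAT for 1, Ndufab1.

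Among the core subunits of the NADH side, Ndufv1, which binds NADH and the flavin, read 13.0 to 13.3 (median 13.2) in 6 WT BAT arrays, 12.2 to 12.5 (median 12.3) in muscle, 11.3 to 11.5 (median 11.4) in eWAT and 11.02 to 11.2 (median 11.1) in liver. None of these 4 ranges overlapped another. Ndufv2, the neighbouring iron-sulfur subunit, read 12.6 to 12.9 in BAT, 12.4 to 12.6 in muscle, 10.8 to 11.1 in eWAT and 10.7 to 10.9 in liver, so that liver and eWAT overlapped.

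Of the quinone-side core, Ndufs8, which carries iron-sulfur clusters on the way to ubiquinone, separated all 4 tissues. Its WT levels were 11.8 to 12.1 (median 12.0) in BAT, 11.2 to 11.7 (median 11.5) in muscle, 10.0 to 10.6 (median 10.2) in liver and 9.46 to 9.93 (median 9.59) in eWAT. The gap of 2.35 ± 0.10 (SE) between BAT and eWAT was the widest of the core subunits for that pair. Ndufs3 read 11.8 to 12.1 in BAT and 11.7 to 11.9 in muscle, 2 ranges that overlap.

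**Figure D1:**
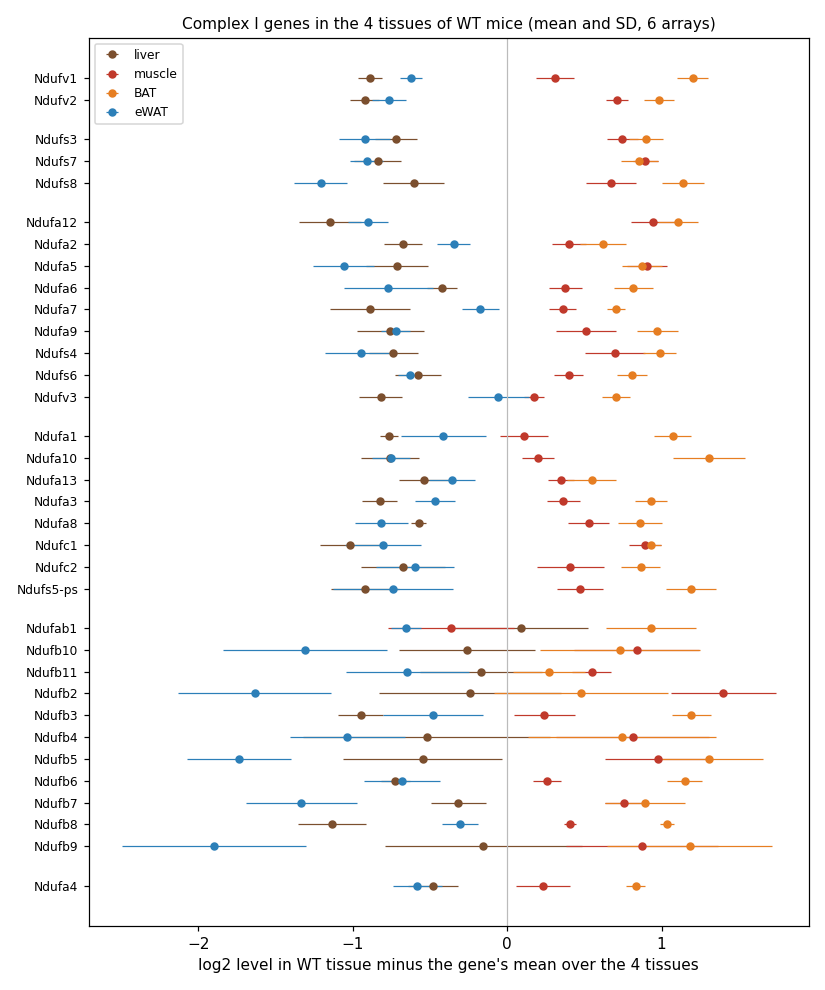
WT level of each of 34 genes in liver, muscle, BAT and eWAT (6 arrays each; point, mean; bar, SD), as the log2 difference from the gene's own mean over the 4 tissues, ordered from core to accessory subunits. BAT and muscle lie to the right for nearly every gene, and the widest bars belong to genes of the distal membrane arm.

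Among accessory subunits of the matrix arm, Ndufa12, a paralogue of the assembly factor Ndufaf2, gave the largest gaps to liver: 2.25 ± 0.11 in BAT and 2.09 ± 0.11 in muscle (limma adjusted p = 3.24e-31 and 2.34e-29). Its 6 WT liver arrays read 9.06 to 9.64, below all BAT arrays (11.4 to 11.7) and all muscle arrays (11.3 to 11.6). Ndufv3 and Ndufa7 had the smallest gaps between BAT and eWAT, 0.76 ± 0.11 and 0.88 ± 0.12. Both genes were also lower in liver than in eWAT, by 0.76 and 0.72 (adjusted p = 2.02e-09 and 2.95e-07).

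Liver and eWAT were the pair in which the genes divided: 12 were higher and 9 lower in liver (24.5% and 30.8% of all probes), with a median of 0.02. Of the 12, 7 belong to the 11 measured genes of the distal membrane arm, whose median was 0.75. Ndufb9 was higher in liver by 1.75 ± 0.34, Ndufb2 by 1.40 ± 0.30, Ndufb5 by 1.19 ± 0.25 and Ndufb10 by 1.05 ± 0.29. The distal arm was not uniform, since Ndufb8 was lower in liver by 0.83 ± 0.09 and Ndufb3 by 0.47 ± 0.12. Ndufb6 had means of 11.03 in liver and 11.08 in eWAT. These 3 have bright probes (mean level over all arrays 10.6 to 12.7). The dim probes of the arm (5.12 to 8.92), Ndufb7, Ndufab1, Ndufb4 and Ndufb11 included, all had the higher mean in liver. Whether the split goes with the arm or with the signal of the probe was not tested. Of the ranges for Ndufb9, Ndufb2, Ndufb5 and Ndufb10, only those of Ndufb9 did not overlap between liver and eWAT. These values depended on the processing. Under median scaling they were 1.19, 0.76, 0.56 and 0.45, Ndufb10 did not pass (adjusted p = 0.129), and 14 genes were called in place of 21. The share of all probes called in that setting is not given here. Without background correction Ndufb9 was at 1.19 and Ndufb2 at 0.73, and under median scaling the value of Ndufb8 was -0.50.

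Between BAT and muscle, 21 genes were higher in BAT and 1 lower (26.5% and 23.8% of all probes), with a median of 0.34, or 1.27-fold. Ndufab1, Ndufa10, Ndufa1 and Ndufb3 had the largest excess in BAT, 1.29, 1.11, 0.96 and 0.95. The probe of Ndufab1 was detected on 3 of 6 WT muscle arrays, and its value was 0.45 without background correction, below the 1.08 of Ndufa10 in that setting. The gene lower in BAT was Ndufb2, by 0.92 ± 0.30 (adjusted p = 0.00656), although its ranges overlapped (7.01 to 8.41 in BAT, 8.37 to 9.28 in muscle). Ndufb11, Ndufb10 and Ndufb4 also had negative values, -0.28, -0.11 and -0.07, none past the test; those of Ndufb10 and Ndufb4 turned positive under median scaling.

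The probe that the platform names Ndufs5-ps stands here beside the proximal membrane arm. Its gene record is a pseudogene of Ndufs5, a small subunit on the intermembrane-space side, and whether the probe also reads Ndufs5 was not tested. The probe was higher in BAT than in liver by 2.12 ± 0.16 and than in muscle by 0.72 ± 0.16.

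Further probes allow a check within a gene. The 4 probes of Ndufs4 gave BAT above eWAT by 1.93 to 2.27. Ndufv3, an accessory subunit with a short and a long isoform, has 3 probes. The 2 bright probes put muscle above liver, whereas the dimmest probe read 6.72 to 7.27 in BAT against 4.29 to 4.69 in muscle, 4.78 to 5.21 in liver and 4.67 to 5.20 in eWAT. That probe was detected on 6 of 6 WT arrays in BAT, liver and eWAT and on 1 of 6 in muscle, so no difference against muscle is given for it. Which transcript each probe detects was not tested.

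Ndufa4, named with complex I but now counted as a subunit of cytochrome c oxidase, was also highest in BAT and next in muscle. It read 13.4 to 13.6 in BAT, 12.6 to 13.1 in muscle, 12.0 to 12.4 in liver and 11.9 to 12.3 in eWAT. BAT exceeded muscle by 0.60 ± 0.08, and liver and eWAT overlapped, with a difference of 0.10 ± 0.08 (adjusted p = 0.313), which under median scaling was 0.44 and passed (adjusted p = 0.018).

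The other respiratory complexes were measured in the same fit. Complexes II, III and IV, measured by 3, 7 and 15 genes, were higher in BAT than in liver for all of these genes, with medians of 1.48, 1.74 and 1.64. Of the 16 genes of complex V, 11 were higher in BAT and 3 lower. Of all probes, 30.5% were higher in BAT than in liver and 19.2% lower. The 15 measured assembly factors of complex I had 12 higher and none lower in BAT than in liver, with a median of 0.98.

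The genes differed widely in how far animals of 1 group spread. The pooled within-group standard deviation over the 16 groups ran from 0.12 for Ndufv2 and 0.13 for Ndufv1 to 0.61 for Ndufb9. Of the 34 genes, 7 exceeded 0.3, a limit chosen after seeing the values, and all 7 belong to the distal membrane arm: Ndufab1, Ndufb11, Ndufb5, Ndufb10, Ndufb2, Ndufb4 and Ndufb9. The median within-group SD of all kept probes lay between 0.20 and 0.27 by tissue. Ndufb6, Ndufb8, Ndufb3 and Ndufb7 of the same arm stayed between 0.15 and 0.28. The 7 genes also have dim probes, with mean levels over all 96 arrays of 5.12 (Ndufab1) to 8.92 (Ndufb9). Ndufb7 was at 8.01, and every other kept gene was at 10.56 or more, Ndufb3, Ndufb6 and Ndufb8 included. Whether the spread goes with the place in the complex or with the signal of the probe was not tested. In all 4 tissues the lowest means of the 7 genes of wide spread were on arrays of 1 of the 12 slides (s2). These arrays were from WT, CR or EX. They read 5.57 and 5.87 in liver, 6.73 and 7.09 in muscle, 7.085 and 7.149 in BAT, and 5.68 and 5.80 in eWAT. The highest arrays read 7.78, 8.20, 8.525 and 7.44 in the same order. The cause of the wide spread was not tested.

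**Figure D2:**
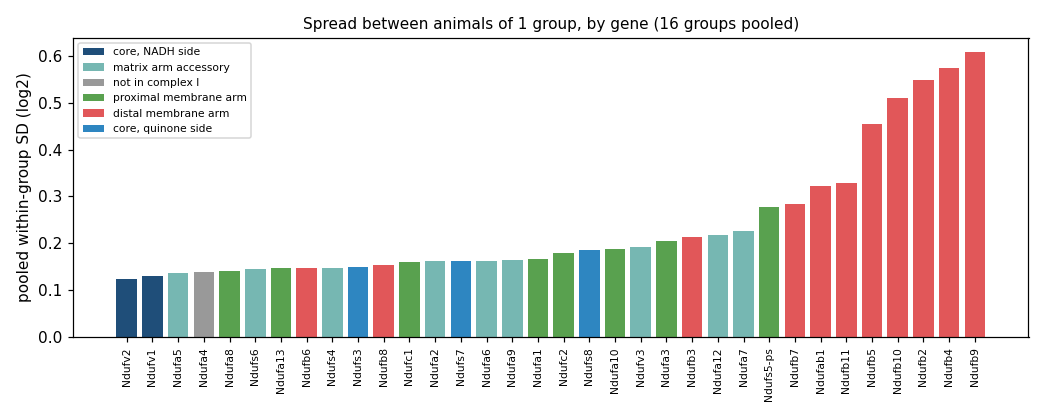
Standard deviation between arrays of the same group (log2, 1 array per animal), pooled over the 16 groups of 6 arrays, for each of 34 genes and coloured by place in the complex. Bars rise from 0.12 for Ndufv2 to 0.61 for Ndufb9, and the 7 tallest all belong to the distal membrane arm. These 7 also have dim probes, with mean levels over all arrays of 5.12 to 8.92.

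In eWAT of CR mice, 5 of 34 complex I genes rose and none fell (limma, Benjamini-Hochberg adjusted p under 0.05), against 0.739% of all 15706 probes that rose and 2.57% that fell. At an unadjusted p under 0.05, 20 genes were higher and none lower, where 5.84% of all probes were higher and 8.18% lower. The fitted difference was above 0 for 33 of 34 genes (54.3% of all probes), with a median of 0.30 against 0.02 for all probes. For 8 of 34 genes all 6 CR arrays lay above all 6 WT arrays, which was true of 1.18% of all probes. The median of the 34 genes per array was 10.6 to 10.8 in WT and 10.99 to 11.3 in CR, with no overlap.

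**Figure D3:**
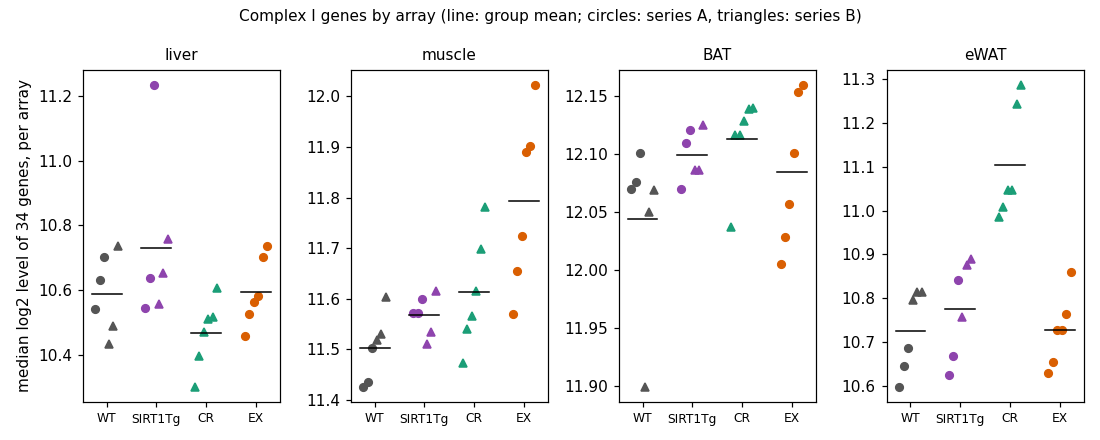
Median log2 level of the 34 genes on each array, by tissue and group (line, group mean; circles, number series A; triangles, series B). In eWAT the 6 CR arrays lie at 10.99 to 11.3, above the 6 WT arrays at 10.6 to 10.8, and 1 liver SIRT1Tg array stands apart at 11.2.

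Ndufs8 of the quinone-side core had the smallest p. Its 6 WT eWAT arrays read 9.89 to 10.3 (median 10.0) and its 6 CR arrays 10.4 to 10.8 (median 10.6). The groups did not overlap, and the difference was 0.51 ± 0.09, or 1.43-fold (adjusted p = 0.00424). The other core genes had smaller values, none past the test: 0.31 for Ndufs3, 0.25 for Ndufv2, 0.24 for Ndufs7 and 0.21 for Ndufv1.

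The matrix arm gave 3 of the 5 genes. Ndufs4, an accessory subunit needed to attach the NADH-oxidising part and whose loss in mice gives a Leigh-like disease, read 10.1 to 10.6 (median 10.3) in WT and 10.7 to 11.2 (median 10.9) in CR, without overlap and with a difference of 0.52 ± 0.10 (adjusted p = 0.00483). Its 3 further probes gave 0.52, 0.56 and 0.66, none past the test and each with overlapping groups. Ndufa12 read 9.83 to 10.1 (median 10.1) in WT and 10.4 to 10.6 (median 10.5) in CR, without overlap, a difference of 0.46 ± 0.09 (adjusted p = 0.00479).

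Ndufa5, another matrix-arm subunit, read 10.3 to 10.7 (median 10.5) in WT and 10.81 to 11.04 (median 11.002) in CR, again with no overlap and a difference of 0.49 ± 0.10 (adjusted p = 0.00973). Its dim second probe gave 0.94 ± 0.34 (adjusted p = 0.156). At the other end of the arm, Ndufa2 and Ndufa7 had values of 0.01 and 0.09.

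In the proximal membrane arm Ndufc1 rose. Its WT arrays read 10.7 to 11.3 (median 11.1) and its CR arrays 11.3 to 11.5 (median 11.5), all 6 above WT, with a difference of 0.37 ± 0.09 (adjusted p = 0.0268). The call was lost in 5 of 12 omissions of a single array (eWAT_2228_WT, eWAT_2232_WT, eWAT_2236_CR, eWAT_2239_CR and eWAT_2242_CR), with values of 0.35 to 0.41 over the 12. Ndufa13 and Ndufa3 of the same arm had values of 0.01 and -0.08. Ndufb6 of the distal arm also had all 6 CR arrays above WT, yet its value of 0.38 ± 0.11 did not pass (adjusted p = 0.0654). In the distal arm 6 of 11 genes had an unadjusted p under 0.05, where 5.84% of all probes were higher. None passed the test, although the median was the largest of the modules at 0.47. The array eWAT_2232_WT was on slide s2, and no CR array of eWAT was. Its mean of the 7 genes of wide spread, 5.80, was the lowest of the WT arrays. The part of slide and of probe signal in that median was not tested. Ndufb9, with the widest spread, read 6.58 to 8.11 in WT and 7.87 to 9.16 in CR, a value of 1.11 ± 0.38 (adjusted p = 0.127). Ndufa4 had a value of 0.27 ± 0.11 with 5 of 6 CR arrays above WT (adjusted p = 0.24).

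**Figure D4:**
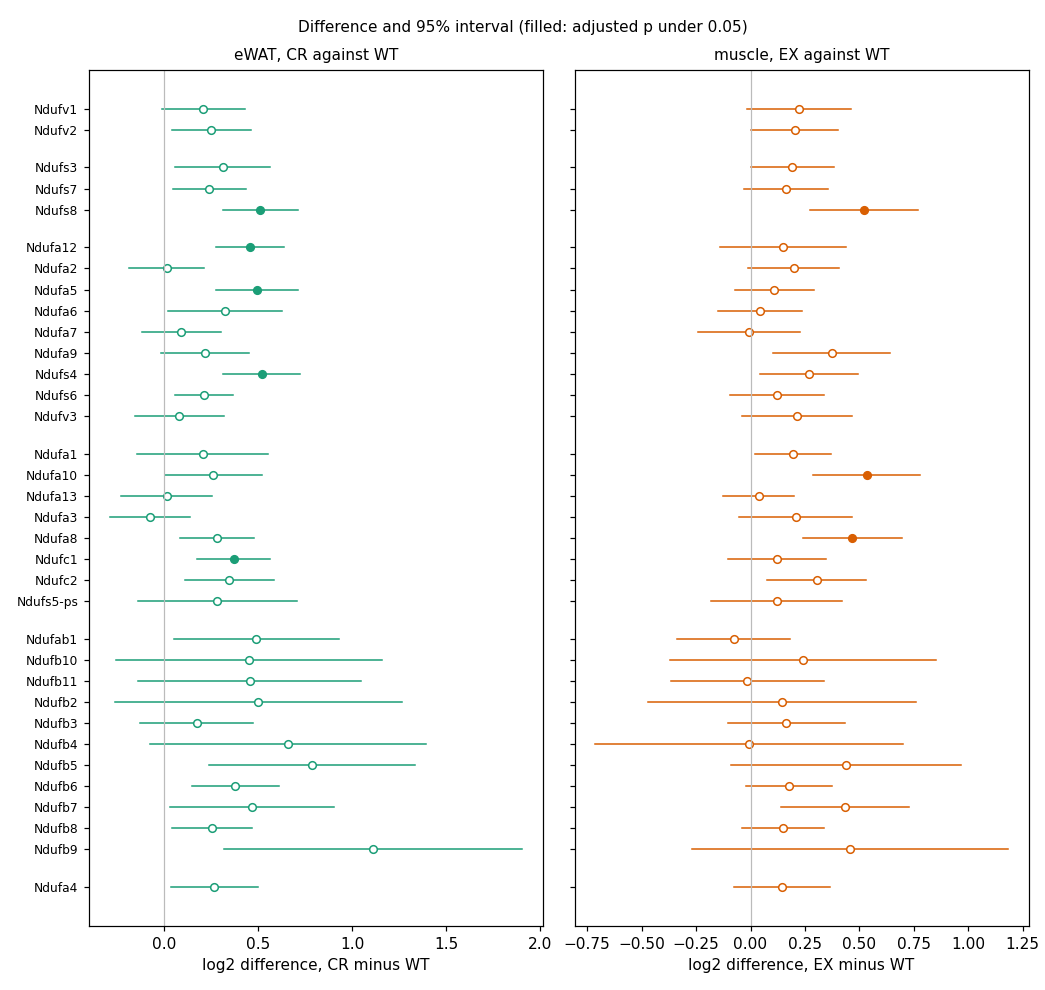
Log2 difference from WT (point) with its 95% interval for each of 34 genes, CR in eWAT on the left and EX in muscle on the right; filled points passed an adjusted p of 0.05. In eWAT 33 of 34 points lie above 0 and 5 are filled; in muscle 30 lie above 0 and 3 are filled.

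The other complexes were read in the same fit. Medians were 0.46 for 3 genes of complex II, 0.27 for 7 of complex III, 0.28 for 15 of complex IV and 0.29 for 15 of complex V, with 1 gene called up (Cox5b, 0.45) and 1 down (Cox6a2, -0.71). Of the 15 assembly factors measured, 1 rose, Ecsit, by 0.56 ± 0.15 (adjusted p = 0.0341), and the median was 0.11. Among 11 regulators of mitochondrial genes measured, Ppargc1b, a coactivator of nuclear receptors in mitochondrial biogenesis, rose by 0.78 ± 0.16 (adjusted p = 0.00712), while Ppargc1a had a value of 0.60 ± 0.34 (adjusted p = 0.457) and Esrra 0.31 ± 0.16 (adjusted p = 0.381).

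Markers of other cells moved with CR in eWAT. Of 8 measured macrophage genes 5 fell (Mrc1, Lyz2, C1qa, C1qb and C1qc, by 1.22 to 1.42), with a list median of -1.26, and the mean of the list was 8.10 to 9.24 in WT and 7.53 to 8.08 in CR. Of 7 measured lymphocyte genes 4 fell, with a list mean of 5.13 to 6.95 in WT and 5.08 to 5.80 in CR. The 8 white adipocyte genes had a median of -0.03, with 1 risen (Retn). The macrophage mean was added as a term. Its WT and CR ranges did not overlap, so that fit cannot tell the part of macrophage genes from CR. The part of the lymphocyte and white adipocyte genes was not tested. With that term, chosen after seeing the data, 13 complex I genes rose and the median was 0.40, with Ndufa12 at an adjusted p of 0.0649. In that fit 7.9% of all probes were called in either direction, against 3.3% without the term. The epididymis genes were near background on most eWAT arrays but reached 7.75 on the array eWAT_2241_CR. Without the eWAT arrays high in epididymis genes, a setting chosen after seeing the data, 7 complex I genes rose, and 6.18% of all probes were called. The mean of the epididymis genes as a term gave 6 calls (5.53% of all probes).

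The call in eWAT depended on the scale and on how slide was fitted. No gene passed in limma under median scaling of whole arrays (6 at an unadjusted p under 0.05, and 4.23% of all probes called) or with slide as a fixed term (7 unadjusted, and no probe of the array called), and the values were then 0.25 to 0.38 and 0.26 to 0.56 for the 5 genes. CR shares 1 slide with WT in eWAT. The fixed slide term left 9 residual degrees of freedom, and with no probe called it cannot tell whether these 5 calls depend on slide. Slide as a random block gave 5 calls (3.15% of all probes). Within number series B alone, where 3 WT arrays stand against 6 CR arrays, the 5 genes rose by 0.37 to 0.49 (adjusted p = 0.018 to 0.0456). In that fit 4.69% of all probes were called in either direction, against 3.3% in the main fit. With only the WT and CR arrays in the fit, 2 genes passed (2.76% of all probes). Leaving out eWAT_2232_WT left 3 of the genes called, without Ndufa5 and Ndufc1. The share of all probes called without that array is not given here.

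**Figure D5:**
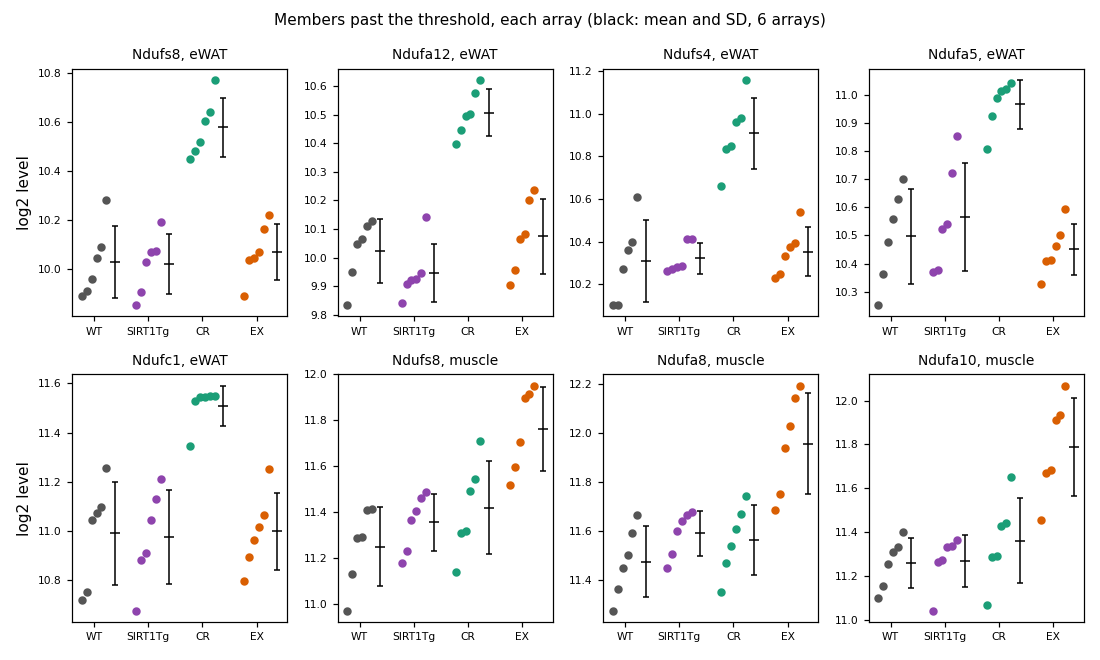
Log2 level on each array of the 5 genes that rose with CR in eWAT and of the 3 that rose with EX in muscle, in all 4 groups (black, mean and SD of 6 arrays). In each eWAT panel the 6 CR arrays lie above the 6 WT arrays, and in each muscle panel the 6 EX arrays lie above the 6 WT arrays.

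In muscle of EX mice, 3 of 34 genes rose and none fell, against 1.07% of all 12447 probes that rose and 0.627% that fell. At an unadjusted p under 0.05, 10 genes were higher and none lower, where 7.68% of all probes were higher and 7.71% lower, and 30 of 34 differences were above 0 (47.2% of all probes), with a median of 0.19 against -0.01. For 4 of 34 genes all 6 EX arrays lay above all 6 WT arrays (2.1% of all probes). The array median of the 34 genes was 11.4 to 11.6 in WT and 11.6 to 12.0 in EX, with overlap.

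Ndufa10, a membrane-arm subunit with a nucleoside kinase fold, read 11.1 to 11.4 (median 11.3) in WT and 11.5 to 12.1 (median 11.8) in EX. The groups did not overlap, with a difference of 0.53 ± 0.12, or 1.45-fold (adjusted p = 0.0229). Ndufs8, called also in eWAT under CR, read 10.97 to 11.4 (median 11.3) in WT and 11.5 to 12.0 (median 11.8) in EX, without overlap and with a difference of 0.52 ± 0.12 (adjusted p = 0.0272).

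Ndufa8, a subunit on the intermembrane-space side of the membrane arm, read 11.3 to 11.7 (median 11.5) in WT and 11.7 to 12.2 (median 12.0) in EX, without overlap, a difference of 0.47 ± 0.11 (adjusted p = 0.0292). Its further probe rose by 0.56 ± 0.12 (adjusted p = 0.0197), with 5 of 6 EX arrays above WT. Ndufb7 was the fourth gene without overlap, 8.12 to 8.46 in WT and 8.47 to 9.12 in EX, but its difference of 0.43 ± 0.14 did not pass (adjusted p = 0.114). Ndufa4 had a value of 0.14 ± 0.11 (adjusted p = 0.567), and Ndufa13, Ndufa7 and Ndufb4 had values of 0.04, -0.01 and -0.01.

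Genes of slow, oxidative fibres rose in the same arrays. Of 12 measured, 8 rose, among them Myl3 by 6.57 and Myl2 by 5.27, with a list median of 2.30, and the list mean was 5.10 to 7.55 in WT and 7.55 to 9.10 in EX. With that mean as a term in limma no complex I gene passed (2 at an unadjusted p under 0.05) and no probe of the array was called, and Ndufa10, Ndufs8 and Ndufa8 had values of 0.36, 0.33 and 0.28 (adjusted p = 0.984, 0.997 and 0.998). The slow fibre means of WT and EX met only at 7.55, so that fit cannot tell the part of slow fibre genes from EX. Markers of other cells were read in this contrast too, none past the test in these lists. Of 6 endothelial genes 4 were higher at an unadjusted p under 0.05, with a median of 0.40 and list means of 6.31 to 6.75 in WT and 6.58 to 6.86 in EX. Of 5 white adipocyte genes 4 were below 0, with a median of -0.76 and list means of 5.88 to 6.55 in WT and 5.57 to 6.34 in EX. The 1 gene above 0, at 0.66, was the only one of that list with an unadjusted p under 0.05. The part of these lists in the result was not tested.

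The medians of the other chains in this contrast were 0.30 for complex II, 0.23 for III, 0.27 for IV and 0.30 for V, with 5 genes called, Cyc1, Cox5b, Cox7a1, Atp5g1 and Atp5o. Of the regulators, Esrrb rose by 1.55 and Esrra had a value of 0.77 ± 0.26 (adjusted p = 0.134).

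These calls lay near the threshold and were lost when certain single arrays were left out. Over 12 omissions the values were 0.476 to 0.599 for Ndufa10, 0.429 to 0.577 for Ndufs8 and 0.395 to 0.525 for Ndufa8. The share of all probes called in these omissions is not given here. No gene passed without muscle_1959_WT, muscle_1960_WT, muscle_1969_EX or muscle_1974_EX, and 1 passed without muscle_1970_EX, with differences between 0.40 and 0.50 for the 3 genes without the first 2. None passed under median scaling (0 unadjusted, a median of 0.05 over the 34 genes, and 0.129% of all probes called), where Ndufa10, Ndufs8 and Ndufa8 had values of 0.40, 0.38 and 0.32. With slide as a fixed term none passed (6 unadjusted) and no probe of the array was called, while the same genes had values of 0.51, 0.59 and 0.59. That fit left 8 residual degrees of freedom and cannot tell whether these calls depend on slide. Slide as a random block gave 3 calls (2.05% of all probes). Within number series A alone the 3 genes rose by 0.52 to 0.59, where 3.49% of all probes were called in either direction, against 1.7% in the main fit.

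The promoters of the 7 genes that rose are shown because these genes rose under CR in eWAT, under EX in muscle or, for Ndufs8, in both. Each line gives the 200 bases before the start of the RefSeq gene record on GRCm38.p6, read 5′ to 3′ on the gene's strand. For Ndufa10 it gives 183, because the start in the promoter table lies 67 bases inside the record. Capitals mark matches to a motif of factors known to act on respiratory chain genes, searched on both strands of the 250 bases before the most upstream start that the promoter table lists: the estrogen-related receptor letters AAGGTCA, the NRF1 motif, the ETS letters CCGGAAG bound by GABP, and the YY1 letters AAGATGGCG.
Ndufs8, chr19:3912775-3912974, minus strand: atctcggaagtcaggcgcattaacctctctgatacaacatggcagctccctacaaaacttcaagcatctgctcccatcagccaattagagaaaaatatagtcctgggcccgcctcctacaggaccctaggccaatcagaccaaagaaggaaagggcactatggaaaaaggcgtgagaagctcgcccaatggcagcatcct
Ndufa10, chr1:92473826-92474008, minus strand: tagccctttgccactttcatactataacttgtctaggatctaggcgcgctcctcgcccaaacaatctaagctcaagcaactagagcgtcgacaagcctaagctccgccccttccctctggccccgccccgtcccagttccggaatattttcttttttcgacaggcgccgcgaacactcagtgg
Ndufa8, chr2:36049339-36049538, minus strand: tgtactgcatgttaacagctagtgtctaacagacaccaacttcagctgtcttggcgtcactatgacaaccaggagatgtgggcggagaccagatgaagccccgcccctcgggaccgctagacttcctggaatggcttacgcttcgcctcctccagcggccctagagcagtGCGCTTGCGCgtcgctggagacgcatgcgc
Ndufa12, chr10:94198835-94199034, plus strand: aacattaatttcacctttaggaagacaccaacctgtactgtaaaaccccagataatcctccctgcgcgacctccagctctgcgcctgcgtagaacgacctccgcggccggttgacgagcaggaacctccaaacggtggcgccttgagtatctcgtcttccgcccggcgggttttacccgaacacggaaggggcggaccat
Ndufs4, chr13:114388095-114388294, minus strand: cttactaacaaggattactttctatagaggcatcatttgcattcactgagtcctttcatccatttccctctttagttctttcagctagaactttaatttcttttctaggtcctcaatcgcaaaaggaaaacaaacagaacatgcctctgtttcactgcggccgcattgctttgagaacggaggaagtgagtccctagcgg
Ndufa5, chr6:24527691-24527890, minus strand: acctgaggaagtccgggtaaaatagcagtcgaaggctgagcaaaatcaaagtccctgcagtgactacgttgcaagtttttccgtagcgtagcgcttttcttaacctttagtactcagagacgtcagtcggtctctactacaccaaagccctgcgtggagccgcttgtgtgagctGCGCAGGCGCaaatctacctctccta
Ndufc1, chr3:51408956-51409155, minus strand: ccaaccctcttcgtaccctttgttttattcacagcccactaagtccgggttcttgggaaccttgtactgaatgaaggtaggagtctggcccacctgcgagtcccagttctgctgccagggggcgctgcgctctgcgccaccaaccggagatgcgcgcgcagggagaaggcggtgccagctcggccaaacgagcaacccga

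Of the 35 genes, 31 matched an entry of the promoter table. The NRF1 letters stood in 4 of 31 (12.9%) against 3.87% of all 27025 promoters, the ETS letters in 3 (9.68%) against 7.07%, the receptor letters in 2 (6.45%) against 4.04%, and the YY1 letters in 0 against 0.592%. Of the 7 printed, Ndufa8 and Ndufa5 hold the NRF1 letters and the others hold none of the 4 motifs in the window shown. A match is a description of the letters and does not show binding.

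In the other 10 comparisons no complex I gene passed the limma test. All CR, EX and SIRT1Tg comparisons of a tissue share its WT arrays. In BAT the medians of the 34 genes were 0.03 for SIRT1Tg, 0.04 for CR and 0.04 for EX, although 3.83% of all BAT probes were called with EX. In BAT under SIRT1Tg, with 0.361% of all probes called, 4 genes had an unadjusted p under 0.05 (15.3% of all probes), all from the distal arm. Ndufb2 was closest, with 6.91 to 8.31 in WT and 8.26 to 8.73 in SIRT1Tg, 5 of 6 arrays above WT and a value of 0.74 ± 0.27 (adjusted p = 0.193), followed by Ndufb9 (0.70) and Ndufb10 (0.53). Within number series A the values of Ndufb2 and Ndufb10 were 0.36 and 0.19, and within series B 1.12 and 0.87. The SIRT1Tg and WT arrays of BAT shared 0 slides, so SIRT1Tg and slide could not be separated in these values. Muscle-defining genes had a median of -1.27 in that contrast, and with their mean as a term, chosen after seeing the data, 0 genes passed (4 unadjusted). BAT under CR (0.248% of all probes called) had 3 genes at an unadjusted p under 0.05 (9.64% of all probes), Ndufc2 at 0.23, Ndufs7 at 0.16 and Ndufa10 at -0.23 (adjusted p = 0.35, 0.499 and 0.512), and EX had none (18.1% of all probes), with Ndufa13, Ndufa2 and Ndufb3 at -0.13, -0.12 and -0.17. Under median scaling the value of Ndufs7 with CR was 0.03, and with slide as a fixed term that of Ndufb3 with EX was -0.04.

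In liver with SIRT1Tg (0.0454% of all probes called) 4 genes had an unadjusted p under 0.05 (9.68% of all probes). Of 34 differences 29 were above 0 (45.8% of all probes), with a median of 0.11 and the smallest p for Ndufa6 at 0.25 ± 0.10 (adjusted p = 0.415), Ndufa4 at 0.22 and Ndufa5 at 0.26. Without liver_1953_SIRT1Tg the median was 0.02 and 18 differences were above 0, and under median scaling the overall median was -0.24 and those 3 genes were negative. With EX (0.0151% of all probes called) 3 genes had an unadjusted p under 0.05 (8.62% of all probes). Ndufb4, Ndufb5 and Ndufb10 had values of -0.67, -0.63 and -0.67 (adjusted p = 0.575 for each), with overlapping groups, and the median of -0.11 became 0.16 under median scaling. With slide as a fixed term the values of Ndufb4 and Ndufb5 turned positive. With CR (0.167% of all probes called, and 6.37% of probes and none of the 34 genes unadjusted) Ndufb7 lay below WT on all 6 arrays, 6.70 to 7.08 against 7.21 to 7.71, yet the fitted value of -0.43 ± 0.22 did not pass (adjusted p = 0.819) and was -0.09 with slide as a fixed term. Of all probes, 0.613% lay below WT on all 6 arrays. Ndufv1 had 0.13, negative under median scaling, and Ndufb3 -0.20.

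Muscle under CR gave 32 of 34 differences above 0 (47.9% of all probes), with a median of 0.11, and no probe of the array passed in that contrast (5.82% of probes and none of the 34 genes at an unadjusted p under 0.05). Ndufb11 had -0.31, Ndufs7 0.15 and Ndufs6 0.16 (adjusted p = 0.883, 0.933 and 0.933), with Ndufb11 at -0.11 without background correction, and the median was -0.01 under median scaling. Muscle under SIRT1Tg (0.0241% of all probes called, and 8.12% of probes and none of the 34 genes unadjusted) had Ndufb5 at 0.46, Ndufb2 at 0.50 and Ndufb9 at 0.59 (adjusted p = 0.615 to 0.639). With slide as a fixed term these values were 0.02, 0.26 and 0.06. In eWAT, SIRT1Tg (0.0382% of all probes called, and 9.07% of probes and 3 of the genes unadjusted) gave Ndufb5 0.52, Ndufb4 0.68 and Ndufb9 0.73 with a median of 0.01, and EX (0.00637% of all probes called, and 4.09% of probes and 1 of the genes unadjusted) gave Ndufb9 0.81, Ndufb5 0.47 and Ndufc1 0.16 with a median of 0.07. With the deposited matrix the SIRT1Tg value of Ndufb4 was 0.22, and with slide as a fixed term the EX value of Ndufb5 was 0.08. The SIRT1Tg and WT arrays of eWAT also shared 0 slides, so SIRT1Tg and slide could not be separated there. For SIRT1Tg in muscle, BAT and eWAT, for EX in eWAT and liver and for CR in muscle, the gene of smallest p was among the 7 of wide within-group spread.

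Whether an effect differs between tissues was tested directly with a moderated F test over all 96 arrays. For CR, 4 genes differed, Ndufs4, Ndufa5, Ndufs8 and Ndufa12 (adjusted p = 0.00031, 0.00253, 0.0194 and 0.0485), where 2.59% of all probes did. Further probes of these genes did not pass: 3 of Ndufs4 had adjusted p = 0.324, 0.477 and 0.856, and 1 of Ndufa5 had 0.948. Ndufs4 had CR values of 0.52 in eWAT, 0.03 in muscle, -0.04 in BAT and -0.10 in liver, and Ndufa12 had 0.46, 0.09, -0.21 and 0.16 in the same order. For EX, 1 gene differed, Ndufa8 (adjusted p = 0.0491, against 0.805% of all probes), with values of 0.47 in muscle, 0.06 in BAT, 0.01 in eWAT and -0.16 in liver; the further probe of Ndufa8 also passed (adjusted p = 0.0119), and Ndufs8 did not (adjusted p = 0.0561). For SIRT1Tg none differed in limma (1 at an unadjusted p under 0.05), where 0.296% of all probes did. Under median scaling none differed for CR (1 unadjusted) or EX (0 unadjusted). With animal as a block, 2 genes differed for EX.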

How the data were processed

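RNA was extracted with Trizol, amplified, labelled with biotin and hybridised to Illumina bead arrays, per the labels' protocols; the submitters' processing notes name GenomeStudio and Partek, without versions. The deposited non-normalized intensity values came without detection p-values. The deposited matrix of log2 values has the same distribution in every column, as after quantile normalisation over all arrays; it was used as an alternative. Probes were named through the platform annotation and RefSeq gene IDs (23978 of 25697 named). Background was taken from the mode of each array's intensities, corrected by normexp with an offset of 16, and the values were quantile normalised. A probe counted as detected above the upper 0.05 tail of that background. limma 3.58.1 in R 4.3.3 fitted condition and number series over the 24 arrays of a tissue, or 16 groups with number series within tissue over 96 arrays, with Benjamini-Hochberg adjustment over all kept probes. "Rose", "fell" and "called" mean an adjusted p under 0.05. P-values measure the spread between arrays within groups, which holds differences between animals and between slides. Slide was not a term in the main fits, and the correlation within a slide was 0.0772 (liver) to 0.191 (BAT). The number of arrays limits precision.

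Named genes were those past the threshold or, where fewer than 3 passed, the 3 of smallest p; in WT tissue comparisons the 4 largest differences each way, or the 4 smallest where all went one way; and Ndufa4. Other members are named as examples. Members and lists were chosen with earlier results of these data known. Arrays of different tissues with the same animal number share the animal (135 pairs, median correlation of deviations 0.07, against -0.01 for 729 other pairs), and animal as a block was an alternative in the fits over tissues. Where the promoter table lists several starts of a gene, the most upstream was used. The fits were tested on simulated data.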

Additional observations from a re-analysis of the deposited data

Results flagged for a closer look

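A sample stood far from the other 5 of its group in 6 of 48 tests, each of 1 measure in 1 of the 16 groups (the median of the complex I genes, and in eWAT and muscle each gene that rose there); chance gives about 1 in 20. The median of the complex I genes was highest in liver SIRT1Tg on liver_1953_SIRT1Tg, at 11.23 against 10.76 for the nearest array. It was lowest in BAT WT on BAT_2231_WT, at 11.9 against 12.05, and lowest in BAT CR on BAT_2242_CR, at 12.04 against 12.12. Ndufa10 was lowest in muscle SIRT1Tg on muscle_2207_SIRT1Tg, at 11.04 against 11.26. Ndufa12 was highest in eWAT SIRT1Tg on eWAT_1955_SIRT1Tg, at 10.14 against 9.946. Ndufc1 was lowest in eWAT CR on eWAT_2245_CR, at 11.34 against 11.53, where it still lay above all WT arrays.

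The CR effect differed between the 4 tissues in the moderated F test of limma for Ndufs4 (adjusted p = 0.00031), Ndufa5 (0.00253), Ndufs8 (0.0194) and Ndufa12 (0.0485), and the EX effect for Ndufa8 (0.0491). Further probes of Ndufs4 and Ndufa5 did not pass for CR (adjusted p = 0.324 to 0.948). Ndufs8 had CR values of 0.51 in eWAT, 0.16 in muscle, 0.15 in liver and -0.09 in BAT, and Ndufa5 had 0.49, 0.11, -0.11 and 0.13 in the same order.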

How the results depend on the processing

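Scaling each array to a common median moved the level of whole groups. The medians of the 34 genes became -0.237, -0.0794 and 0.158 in liver (SIRT1Tg, CR, EX), -0.0122 (CR) and 0.0538 (EX) in muscle, -0.04, -0.0894 and -0.0742 in BAT, and -0.133, 0.154 and -0.119 in eWAT. The median of all probes was then -0.162 and 0.18 in liver SIRT1Tg and EX, -0.103 in muscle EX and -0.105 in eWAT EX. Calls fell to 0 for EX in muscle and CR in eWAT, and to 0 for the CR and EX effects that differ between tissues. WT medians became 0.486 for BAT against muscle, 1.6 for BAT against eWAT, 0.989 for muscle against liver and 1.03 for muscle against eWAT. Median scaling over kept probes, chosen after seeing the data, gave 0 calls for EX in muscle (0.892% of all probes called), where Ndufa10, Ndufs8 and Ndufa8 had values of 0.523, 0.494 and 0.436, and medians of -0.0284 (muscle SIRT1Tg) and -0.0281 (BAT CR). With slide as a fixed term no probe of the array was called in either contrast, the 3 muscle genes had values of 0.509, 0.59 and 0.585, and the liver SIRT1Tg median was -0.122; this fit was not possible for SIRT1Tg in BAT or eWAT.

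Without the number series term 5 genes were called for EX in muscle (6.31% of all probes), 10 for CR in eWAT (3.55%) and 8 for CR across tissues. Series B alone gave a muscle SIRT1Tg median of -0.0286, and the slow fibre term 0 calls for EX in muscle. CR in eWAT gave 8 calls with the deposited matrix (4.13% of all probes) and 8 without background correction (4.04%), 2 with only the compared groups (2.76%) and 13 with the macrophage term (7.9%). The matrix gave WT medians of 1.58 (BAT against eWAT), 1.08 (muscle against liver) and 1.06 (muscle against eWAT), as did no background correction (1.58, 1.08 and 1.06). EX differed between tissues for 2 genes under the matrix, no background correction, the slide as a random block and the animal as a replicate block. The animal block changed no other call among the tissue results. Leaving out 1 animal gave 0 to 3 calls for EX in muscle and 3 to 6 for CR in eWAT. For the counts across tissues, and for those with 1 animal left out, the share of all probes called is not given here. Whether these counts moved with the whole array, and the cause of these shifts, were not tested.

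No named gene past the threshold turned sign. Under median scaling the values were -0.119 for Ndufa6, -0.107 for Ndufa5 and -0.101 for Ndufa4 (liver SIRT1Tg), -0.0235 for Ndufv1 and -0.0974 for Ndufa4 (liver CR), -0.0423 for Ndufc1 and -0.0721 for Ndufa4 (eWAT EX), 0.0434 for Ndufb10 and 0.166 for Ndufb4 (BAT against muscle), and for Ndufa4 -0.0242 (muscle CR), -0.041 and -0.0825 (BAT SIRT1Tg, CR) and -0.0909 (eWAT SIRT1Tg). Over kept probes they were -0.00731 for Ndufv1 and -0.0812 for Ndufa4 (liver CR), and for Ndufa4 -0.0212 (BAT CR) and -0.00843 (eWAT SIRT1Tg). With slide fixed, Ndufb4, Ndufb5 and Ndufa4 gave 0.0517, 0.0222 and -0.00124 (liver EX), and Ndufa4 0.0456 (BAT EX). Ndufa4 in BAT SIRT1Tg gave -0.000133 with the matrix, -0.0102 in series B and -0.0171 to 0.0196 without single animals. Against muscle, Ndufb4 in BAT gave -0.241 to 0.0978 and Ndufb10 -0.218 to 0.0866 without single animals.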
